A study of Mus musculus with 4 samples.

Results

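The 9 genes described here are grouped under mRNA decay and NF-kB feedback. They are Zfp36 and its relatives Zfp36l1 and Zfp36l2, the NF-kB feedback genes Nfkbia, Nfkbiz and Tnfaip3, the NF-kB subunit genes Nfkb1 and Rela, and Elavl1. They were picked by gene name, with earlier results of these data known, and no threshold on a measured value was used. Each matched 1 row of the count table, so that 9 of 19353 genes were followed.

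The study asked how muscle stem cells (MuSCs, the Pax7-expressing cells beneath the sheath of the myofiber) respond when a muscle is overloaded without overt injury. All mice carried Pax7-CreERT2:Rosa-YFP, in which tamoxifen-activated Cre under the control of Pax7 turns on YFP in MuSCs and their progeny. In the tenotomy group the tendons of gastrocnemius and soleus were cut, which overloads the plantaris, and in the sham group the skin was opened without cutting tendons. At 4 days after surgery, plantaris muscles were digested with collagenase and YFP+ cells were sorted as tubes of 100 cells, from which CEL-Seq2 libraries were made. CEL-Seq2 primes mRNA at its 3′ end and tags each molecule with a unique molecular identifier (UMI), so that a count is a count of tagged molecules.

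The groups held 2 sham and 2 tenotomy libraries. The age of the mice, and whether tubes of the same group were filled from separate animals, are not given in the sources used here. Nor is it given whether sham and tenotomy muscles of these tubes came from the same mice, and since other measurements of the study used the opposite leg as sham, the groups may share mice. Thus the p-values below measure the spread between these tubes. Total UMIs were 269683 and 260488 in sham 1 and 2, against 387955 and 483528 in tenotomy 1 and 2. Levels are given as UMI counts and as CPM, which are UMIs scaled to a common library total by TMM, and on this scale 1 UMI is worth 4.35 and 4.53 CPM in the sham libraries and 2.60 and 2.03 CPM in the tenotomy libraries. The sorted cells carried their defining transcripts. Pax7 had 118 and 107 UMIs in the sham libraries and 108 and 137 in the tenotomy libraries. Myf5, a myogenic regulator, had 244 and 168 UMIs against 388 and 467. Once scaled by TMM, Pax7 was lower after tenotomy (log2 fold change -0.84), whereas Myf5 was not called (0.10). The other MuSC markers, which moved in both directions, are given at the end of the results.

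As background, Zfp36 encodes tristetraprolin, a zinc finger protein that binds AU-rich elements (AREs) in the 3′ UTR of short-lived mRNAs and recruits the CCR4-NOT deadenylase, after which the message is degraded. Zfp36l1 and Zfp36l2 encode relatives with the same kind of RNA-binding domain, whereas Elavl1 encodes HuR, which binds similar elements and mostly stabilizes the message. NF-kB, typically a dimer of p50 (from Nfkb1) and p65 (Rela), is held in the cytoplasm by IkBα (Nfkbia) until IkB kinase marks the inhibitor for destruction. NF-kB then transcribes Nfkbia and Tnfaip3, whose products IkBα and A20 shut the pathway down again, together with Nfkbiz, whose product IkBζ is a nuclear cofactor for a subset of targets. In MuSCs, tristetraprolin is known as a regulator of quiescence that limits Myod1 mRNA, and p38 signaling is known to inactivate it on activation.

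The first sequence searched for was the ARE heptamer TATTTAT. It was searched on the sense strand of the longest annotated 3′ UTR of each gene in GENCODE M21 (GRCm38), counting overlapping matches. It was present in 6 of the 9 genes, with 3 copies each in Zfp36, Zfp36l1 and Zfp36l2, 2 each in Nfkbia and Tnfaip3 and 8 in Elavl1, and it was not found in Nfkbiz, Nfkb1 or Rela. Of all 21027 genes with an annotated 3′ UTR, 27.6% held it. The windows below show the densest stretch of 30 bases in 5 of these genes, with the heptamers in capitals.
Zfp36, chr7:28376958-28376987, minus strand: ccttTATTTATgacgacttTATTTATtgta
Zfp36l1, chr12:80108422-80108451, minus strand: cttatcaaaacgTATTTATtgccaaactat
Zfp36l2, chr17:84184914-84184943, minus strand: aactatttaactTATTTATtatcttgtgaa
Nfkbia, chr12:55489608-55489637, minus strand: aggaccacgtttTATTTATtgtgcttttga
Elavl1, chr8:4285777-4285806, minus strand: tTATTTATTTATTTATTTATtttTATTTAT

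The second sequence searched for was the NF-kB consensus site. Windows from 250 bases before to 50 bases after the start of transcription, taken from RefSeq (GRCm38.p6), were searched on both strands. Of the 9 genes, 6 matched an entry of that table, and those without one were Zfp36l2, Nfkbiz and Nfkb1. Nfkbia held 1 match, 29 bases before the start, and the first of the 2 Tnfaip3 windows held 2, at 125 and 12 bases before the start. The windows of Zfp36, Zfp36l1, Rela and Elavl1 held none of these letters. Of all 32851 windows, 8.46% held a match and 1.22% held 2 or more. The matches are in capitals below, and a match is a description of the sequence only.
Nfkbia, chr12:55492598-55492897, minus strand: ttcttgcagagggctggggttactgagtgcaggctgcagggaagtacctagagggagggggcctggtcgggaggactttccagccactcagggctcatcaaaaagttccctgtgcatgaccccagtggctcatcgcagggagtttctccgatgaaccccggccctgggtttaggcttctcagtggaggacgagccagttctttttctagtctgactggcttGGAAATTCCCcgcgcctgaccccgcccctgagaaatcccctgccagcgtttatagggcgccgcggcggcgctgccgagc
Tnfaip3, chr10:19015361-19015660, minus strand: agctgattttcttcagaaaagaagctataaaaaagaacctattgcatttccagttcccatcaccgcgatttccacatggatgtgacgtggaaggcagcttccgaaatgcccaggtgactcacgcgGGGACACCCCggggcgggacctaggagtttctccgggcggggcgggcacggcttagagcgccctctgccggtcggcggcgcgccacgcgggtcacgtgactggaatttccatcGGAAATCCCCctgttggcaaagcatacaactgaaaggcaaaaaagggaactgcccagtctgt

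Relative to the other genes, tenotomy libraries held less mRNA of 7 of the 9 genes, and 0 were higher. In edgeR (quasi-likelihood fit over 7228 genes, Benjamini-Hochberg adjusted p under 0.1), 26.3% of all genes tested were called lower and 25.8% higher. The genes called lower were Zfp36, Zfp36l1, Nfkbia, Nfkbiz, Tnfaip3, Nfkb1 and Rela, and Zfp36l2 and Elavl1 did not pass. The normalized levels of the same 7 genes lay below both sham levels in both tenotomy libraries, which 35.4% of all genes tested also did. The median log2 fold change was -1.53 over the 9 genes and 0.05 over all genes tested. All 9 genes passed the filter on low counts in both groups.

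**Figure D1:**
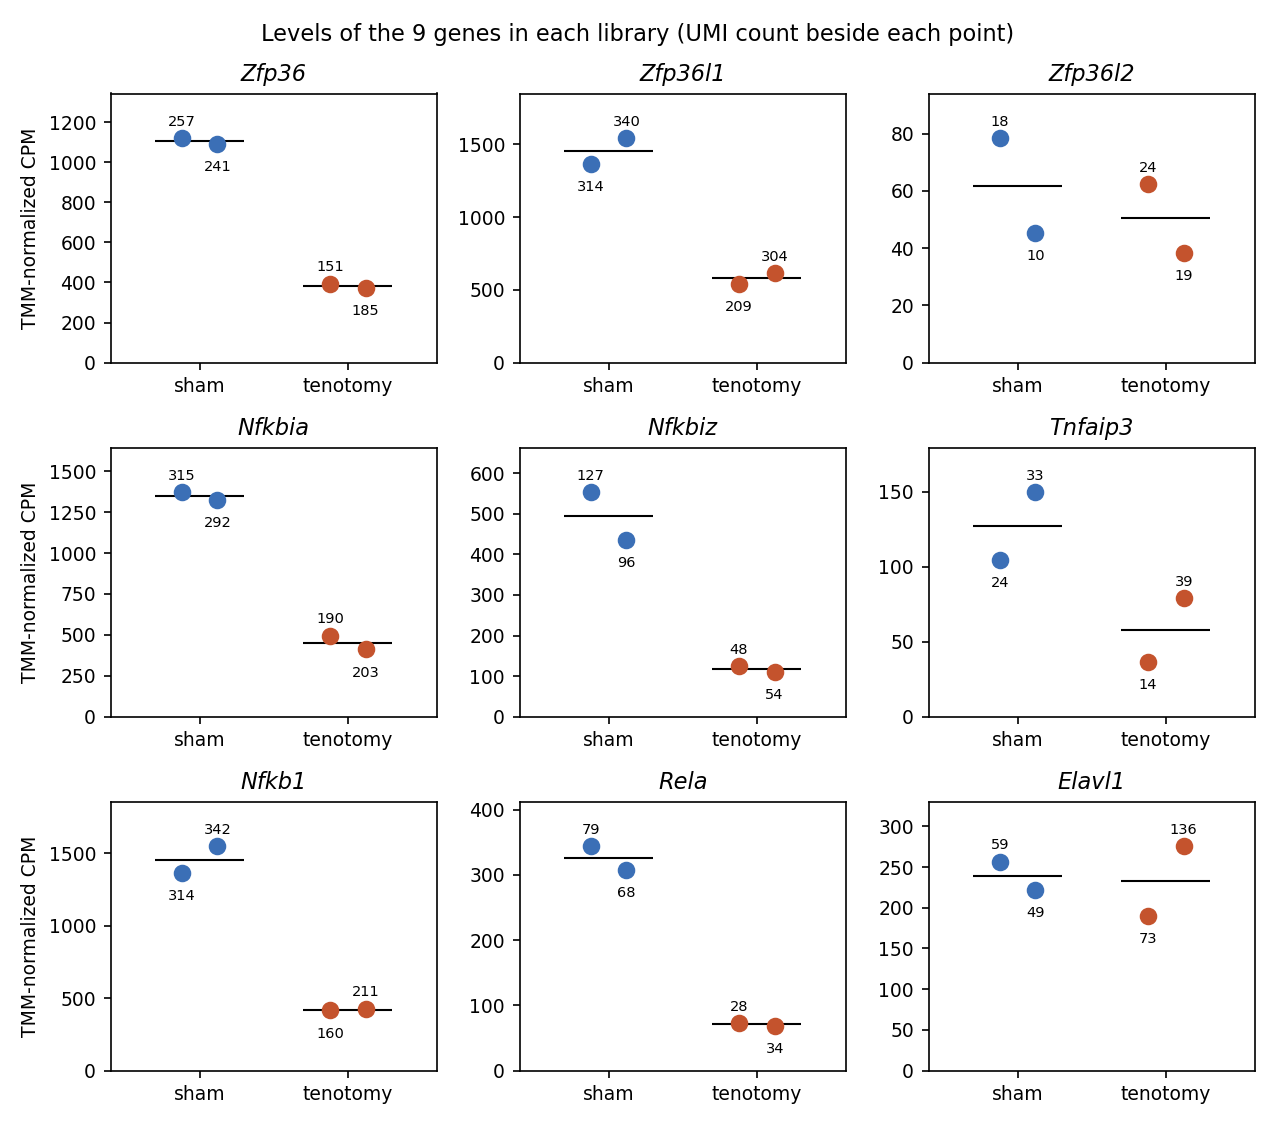
TMM-normalized CPM (y axis, linear from 0) of each of the 9 genes in the 2 sham (blue) and 2 tenotomy (orange) libraries, with the UMI count beside each point and a line at the group mean. In 7 panels both tenotomy points lie below both sham points, and in the panels of Zfp36l2 and Elavl1 the groups overlap.

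Zfp36 (ENSMUSG00000044786, chr7:28376784-28380253, minus strand, GRCm38) had 257 and 241 UMIs in the sham libraries and 151 and 185 UMIs in the tenotomy libraries. Both tenotomy counts were below both sham counts, although the tenotomy libraries were the deeper ones. The level fell from 1105 ± 19.0 CPM (SD, n = 2) to 384 ± 12.7 CPM (SD, n = 2), which is 2.88-fold lower. The log2 fold change was -1.53 ± 0.16 (SE), with a 95% interval from -1.86 to -1.20 and an adjusted p of 1.19e-06 in edgeR.

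Zfp36l1 (ENSMUSG00000021127, chr12:80107754-80113013, minus strand), whose product shares the RNA-binding fold of tristetraprolin, had 314 and 340 UMIs in the sham libraries and 209 and 304 UMIs in the tenotomy libraries. The groups did not overlap before or after scaling, although tenotomy 2 came close to sham 1 before it. The level fell from 1453 ± 123 CPM to 580 ± 51.0 CPM (SD, n = 2 each), or 2.50-fold. The log2 fold change was -1.32 ± 0.16 (SE), with an adjusted p of 6.63e-06 in edgeR. With the offsets for abundance described below, it was -0.29 (adjusted p = 0.112 in edgeR) and did not pass. Zfp36l2 (ENSMUSG00000045817, chr17:84183931-84187947, minus strand), the third relative, had 18 and 10 UMIs in the sham libraries and 24 and 19 in the tenotomy libraries. Its normalized levels overlapped between the groups, at 78.4 and 45.3 CPM against 62.4 and 38.5 CPM. The log2 fold change was -0.33 with a 95% interval from -1.17 to 0.50 (adjusted p = 0.522 in edgeR), which spans both a fall and a rise, so that no difference was detectable at this depth.

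Within the family, the share of Zfp36 was compared between libraries, since a share does not depend on library size. Zfp36 took 43.6% (95% Clopper-Pearson interval 39.6 to 47.7, counting error only) and 40.8% (36.8 to 44.9) of the 589 and 591 UMIs of the 3 genes in the sham libraries. It took 39.3% (34.4 to 44.4) and 36.4% (32.2 to 40.8) of the 384 and 508 UMIs in the tenotomy libraries. The intervals of both tenotomy libraries overlapped with the intervals of both sham libraries, and the difference in share was not tested.

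Nfkbia (ENSMUSG00000021025, chr12:55489410-55492647, minus strand), the inhibitor that NF-kB induces against itself, had 315 and 292 UMIs in the sham libraries and 190 and 203 UMIs in the tenotomy libraries. The counts of the groups were far apart. The level fell 2.99-fold, from 1347 ± 34.2 CPM to 453 ± 58.6 CPM (SD, n = 2 each), with a log2 fold change of -1.58 ± 0.16 (SE) and an adjusted p of 1.18e-06 in edgeR. The 95% interval of the log2 fold change was -1.92 to -1.24. Nfkbia held both an ARE heptamer and an NF-kB match, whereas Zfp36 held ARE heptamers and no NF-kB match in the window searched. The part of these sequences in the fold changes was not tested.

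Nfkbiz (ENSMUSG00000035356, chr16:55811375-55838899, minus strand), which encodes IkBζ, had 127 and 96 UMIs in the sham libraries and 48 and 54 UMIs in the tenotomy libraries. The sham libraries differed from each other by more than the tenotomy libraries did, and the groups did not overlap. The level fell 4.24-fold, from 494 ± 83.4 CPM to 117 ± 10.9 CPM (SD, n = 2 each), with a log2 fold change of -2.08 ± 0.19 (SE) and an adjusted p of 5.26e-07 in edgeR.

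Tnfaip3 (ENSMUSG00000019850, chr10:19000910-19015657, minus strand), which encodes the ubiquitin-editing enzyme A20, was the least certain of the genes called. It had 24 and 33 UMIs in the sham libraries and 14 and 39 UMIs in the tenotomy libraries, so that the raw counts of the groups overlapped and the tenotomy libraries differed most from each other. Normalized levels were 104 and 149 CPM against 36.4 and 79.0 CPM. The log2 fold change was -1.08 ± 0.35 (SE), with a 95% interval from -1.81 to -0.35 and an adjusted p of 0.0184 in edgeR. Without tenotomy 1 the log2 fold change was -0.66. With DESeq2 in place of edgeR, over 10348 genes against 7228, it was -1.11 (adjusted p = 0.108), which did not pass the threshold.

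Nfkb1 (ENSMUSG00000028163, chr3:135584655-135691547, minus strand), the source of p105 and p50, had 314 and 342 UMIs in the sham libraries and 160 and 211 UMIs in the tenotomy libraries. All sham counts were well above all tenotomy counts. The level fell 3.45-fold, from 1458 ± 129 CPM to 422 ± 7.97 CPM (SD, n = 2 each), with a log2 fold change of -1.79 ± 0.16 (SE) and an adjusted p of 3.95e-07 in edgeR. The annotation places an unconfirmed transcript on the same strand within Nfkb1, Gm43430 (chr3:135650670-135654566), which overlaps 0 annotated exons of Nfkb1. It was counted separately, with 141 and 121 UMIs in the sham libraries and 39 and 75 in the tenotomy libraries, a log2 fold change of -2.17 (adjusted p = 4.10e-07 in edgeR). Molecules of the unspliced Nfkb1 transcript and of Gm43430 cannot be told apart from these counts.

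Rela (ENSMUSG00000024927, chr19:5637483-5648130, plus strand), which encodes p65, had the lowest estimate of the 9 genes. It had 79 and 68 UMIs in the sham libraries and 28 and 34 UMIs in the tenotomy libraries, with both groups tight and far apart. The level fell 4.60-fold, from 326 ± 25.3 CPM to 70.8 ± 2.79 CPM (SD, n = 2 each), with a log2 fold change of -2.20 ± 0.21 (SE) and an adjusted p of 7.40e-07 in edgeR. The 95% interval of Rela, -2.65 to -1.75, overlapped with those of Nfkbiz (-2.49 to -1.67) and Nfkb1 (-2.13 to -1.45). No order among these 3 falls was thus established with TMM. With the offsets for abundance described below, the values were -2.07 ± 0.22 (SE) for Rela, -1.66 ± 0.19 for Nfkbiz and -0.79 ± 0.13 for Nfkb1. The differences between these genes were not tested.

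Elavl1 (ENSMUSG00000040028, chr8:4285382-4325413, minus strand), the gene of the stabilizing protein HuR, did not pass the test. It had 59 and 49 UMIs in the sham libraries and 73 and 136 UMIs in the tenotomy libraries, and its normalized levels of 257 and 222 CPM against 190 and 275 CPM overlapped. The log2 fold change was -0.02, with a 95% interval from -0.47 to 0.42 and an adjusted p of 0.939 in edgeR. This interval lies above the intervals of the genes called lower, except that of Tnfaip3. The difference between Elavl1 and the other genes was not itself tested.

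Other annotated genes overlapped with Zfp36 (Gm44710, antisense), Zfp36l1 (Gm26669), Zfp36l2 (AC132455.1) and Elavl1 (Ccl25), all on the opposite strand. The strand setting of the count is not given in the sources used here. Where the overlapping gene had a row, its counts were low: Gm44710 had 0, 1, 0 and 0 UMIs in sham 1, sham 2, tenotomy 1 and tenotomy 2, and Ccl25 had 2, 1, 8 and 8.

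The size of these falls depended on what a count was set against. The 9 genes together gave 1507 and 1471 UMIs in the sham tubes and 897 and 1185 UMIs in the tenotomy tubes, or 6560 and 6664 CPM against 2332 and 2400 CPM. Before any scaling, 6 of the 9 genes (those called lower except Tnfaip3) had both tenotomy counts below both sham counts, which was true of 7.90% of all genes tested. Tested as UMIs per tube of 100 cells, without scaling for library size, Zfp36, Zfp36l1, Nfkbia, Nfkbiz, Nfkb1 and Rela were still called lower, where 4.58% of all genes were (edgeR). On that scale the log2 fold change was -0.57 for Zfp36 (adjusted p = 0.0076), -0.35 for Zfp36l1 (adjusted p = 0.0770), -1.24 for Rela (adjusted p = 0.0027) and -0.10 for Tnfaip3 (adjusted p = 0.844), and Elavl1 was called higher at 0.95 (adjusted p = 0.0106), where 62.0% of all genes were. The number of molecules per tube depends on capture and sequencing as well as on RNA per cell, and fewer expressing cells and less RNA per cell cannot be told apart.

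**Figure D2:**
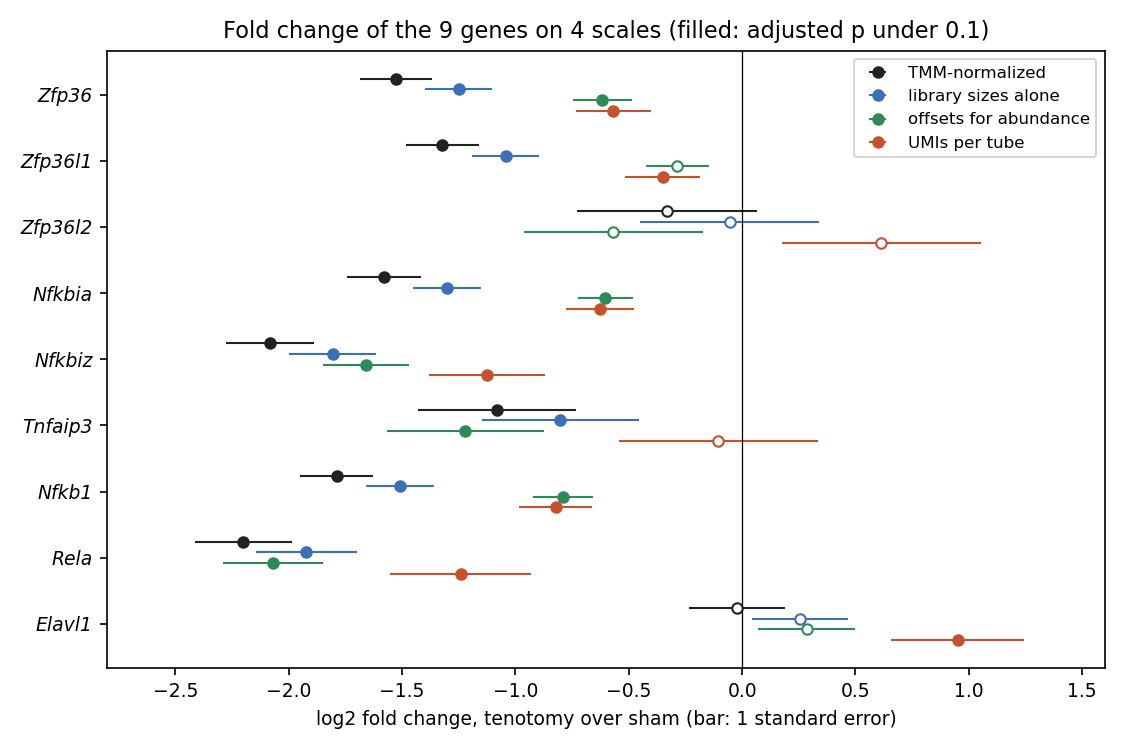
Log2 fold change of tenotomy over sham (x axis, bars 1 SE from edgeR) of each gene with TMM normalization (black), library sizes alone (blue), offsets that depend on abundance (green) and UMIs per tube (orange), with filled points for an adjusted p under 0.1. Zfp36, Nfkbia, Nfkbiz, Nfkb1 and Rela are filled and below 0 on all 4 scales, Zfp36l1 is unfilled with abundance offsets, Tnfaip3 is unfilled per tube, and Elavl1 crosses from -0.02 to 0.95.

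Abundance moved with the fold change across the whole data set, and several of the 9 genes were abundant. When the genes tested were ordered by average level and divided into 10 bins of equal size, the median log2 fold change went from 0.53 in bin 1, the lowest, to -0.74 in bin 10, in which 70.8% of genes were called lower. Zfp36, Zfp36l1, Nfkbia and Nfkb1 lay in bin 10. Nfkbiz and Elavl1 lay in bin 9 (median -0.28, 44.5% called lower), Rela in bin 8 (-0.09, 32.4%), Tnfaip3 in bin 6 (0.13, 18.1%) and Zfp36l2 in bin 4 (0.26, 16.3%). Offsets from a loess curve of the log ratio on abundance were meant to set the trend to 0. The median over all genes was then 0.01, and the medians of the bins were not checked. With these offsets, 6 of the 9 genes were called lower and 0 higher, against 23.6% and 23.9% of all genes (edgeR). The log2 fold changes were then -2.07 for Rela, -1.66 for Nfkbiz, -1.22 for Tnfaip3, -0.79 for Nfkb1, -0.62 for Zfp36 and -0.60 for Nfkbia. Zfp36l1, at -0.29 (adjusted p = 0.112), did not pass. The part of abundance in the falls of the most abundant genes was not tested beyond these offsets.

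**Figure D3:**
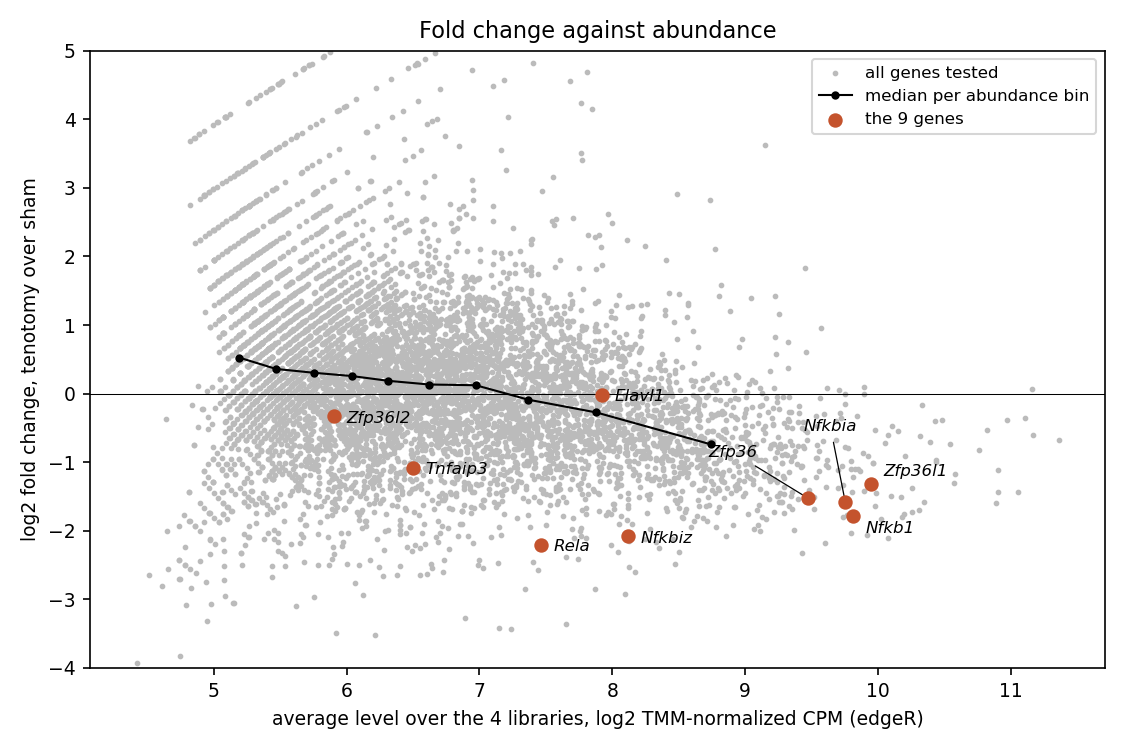
Log2 fold change of tenotomy over sham (y axis) against the average log2 CPM over the 4 libraries (x axis) for all genes tested (grey), the 9 genes (orange) and the median of each abundance bin (black line), with 64 genes outside the y axis. The line falls from 0.53 to -0.74, Rela, Nfkbiz and Tnfaip3 lie well under it, and Zfp36l1 lies closest to it among the genes called lower.

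NF-kB subunits and IkB proteins were lower wherever they could be tested on the TMM scale. For each list below, the counts called stand beside the shares over all genes given above: 26.3% lower and 25.8% higher with TMM, 4.58% and 62.0% per tube, and 23.6% and 23.9% with abundance offsets. Of 11 genes in the list, which includes Nfkb1, Rela, Nfkbia and Nfkbiz, 10 were tested, all 10 were called lower (edgeR) and the median log2 fold change was -1.62. The other Rel proteins fell by 1.59 (Relb) and 1.39 (Rel) on the log2 scale, and Nfkb2, the p100 gene of the alternative pathway, by 0.78. The inhibitors fell by 1.66 (Nfkbie) and 1.07 (Nfkbib), and Bcl3, a nuclear IkB protein, by 1.71. Bcl3 had 91 and 88 UMIs in the sham libraries and 44 and 63 in the tenotomy libraries. Nfkbid, with 1, 0, 1 and 13 UMIs, was too low to be tested. Nfkbie passed the filter on low counts in the sham group alone. All 10 genes were also lower with abundance offsets and with library sizes alone (18.7% of all genes), and per tube 5 were lower and 0 higher.

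Upstream, the kinases and the receptor adaptors were counted as separate lists, and the difference between the lists was not tested. Of 7 tested genes of the IkB kinase complex and its activators, 2 were called lower and 2 higher, close to the shares over all genes, with a median of 0.08, and per tube 0 were lower and 4 higher. Ikbkg, called higher with 2, 4, 12 and 21 UMIs, passed the filter on low counts in the tenotomy group alone. Chuk, the IKKα gene, went from 146 to 90.6 CPM (log2 fold change -0.70, adjusted p = 0.0334 in edgeR), whereas Map3k7, the TAK1 gene, went from 88.7 to 142 CPM (0.69, adjusted p = 0.0387). Among adaptors of the TNF and Toll receptors, 6 of 9 tested genes were lower and 0 higher, with a median of -1.03, whereas per tube 2 were lower and 4 higher, with a median of -0.07. Birc3, the cIAP2 gene and itself an NF-kB target, had 87 and 86 UMIs in the sham libraries and 31 and 53 in the tenotomy libraries (log2 fold change -2.01, adjusted p = 1.03e-06 in edgeR). Ripk1, the kinase recruited to the TNF receptor, went from 364 to 112 CPM, and Myd88, the Toll receptor adaptor, from 314 to 104 CPM. Traf1 was too low to be tested, with 0 and 0 UMIs in the sham libraries against 11 and 12.

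Of 9 tested partners of A20 and other inhibitors, Tnfaip3 included, 5 were lower and 2 higher, with a median of -0.59. Per tube 0 were lower and 4 higher, with a median of 0.37 beside 1.01 over all genes. Tnip1, which brings A20 to its substrates, had 35 and 35 UMIs in the sham libraries against 17 and 27 (log2 fold change -1.63, adjusted p = 2.41e-04 in edgeR). Cyld, a deubiquitinase that restrains NF-kB independently of A20, moved the other way, with 13 and 10 UMIs in the sham libraries against 39 and 76 (1.34, adjusted p = 0.0037). Otulin, which removes linear ubiquitin chains, was also called higher (0.99, adjusted p = 0.0759 in edgeR), but passed the filter on low counts in the tenotomy group alone, with 8 and 5 UMIs in the sham libraries. Tnip2, called lower with 18, 8, 7 and 17 UMIs, passed it in the sham group alone.

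**Figure D4:**
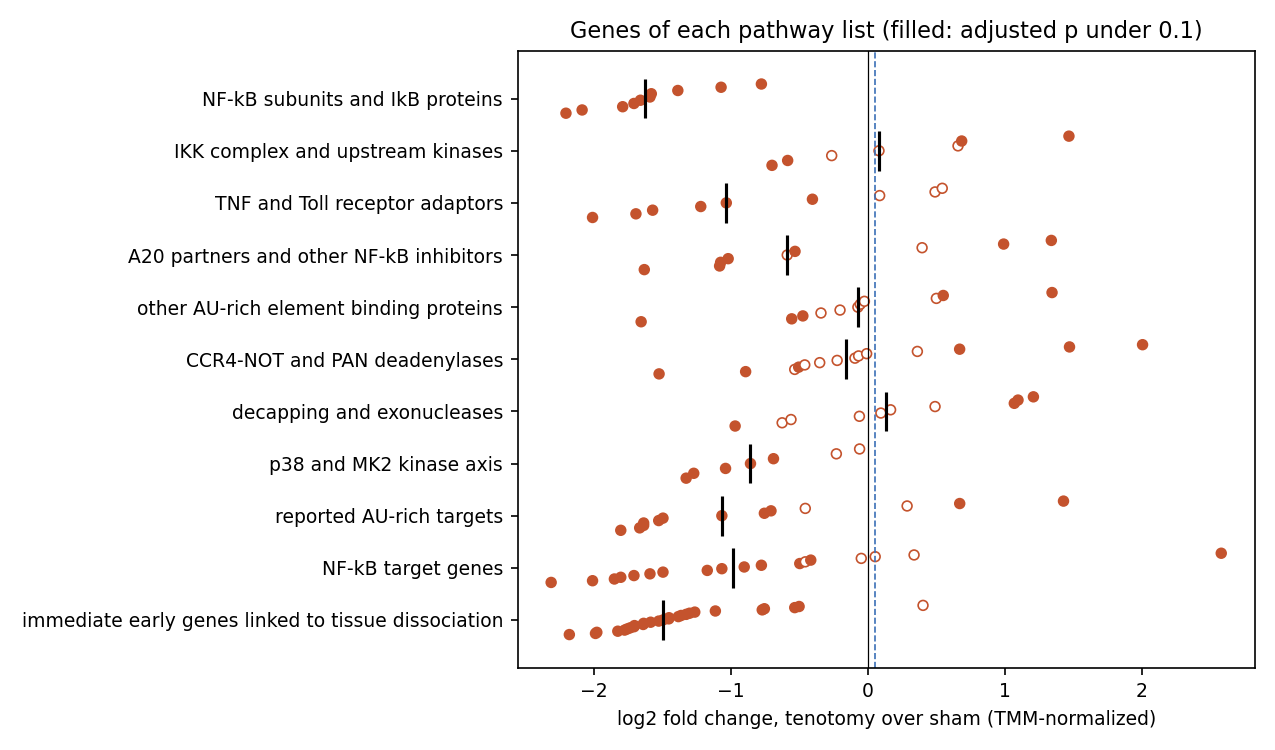
Log2 fold change of tenotomy over sham (x axis, TMM-normalized) for every tested gene of 11 lists (rows), with filled points for an adjusted p under 0.1 in edgeR, a black bar at the list's median and a dashed line at the median of all genes tested (0.05). NF-kB subunits and IkB proteins lie wholly below 0 with a median of -1.62, whereas deadenylases and decapping factors lie on both sides of 0.

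For the machinery that acts after tristetraprolin, the counts of the deadenylases were near those over all genes with TMM. Of 14 tested genes of the CCR4-NOT and PAN deadenylases, 3 were higher and 3 lower, with a median of -0.16, and per tube 9 were higher and 1 lower. Cnot1, the scaffold that tristetraprolin contacts, had 36 and 32 UMIs in the sham libraries against 62 and 64, a log2 fold change of -0.07 that did not pass (adjusted p = 0.836 in edgeR). Tob2, an antiproliferative adaptor of the complex, fell from 578 to 198 CPM (log2 fold change -1.52, adjusted p = 8.80e-06), whereas Cnot9, a small subunit of the complex, went from 24.7 to 99.6 CPM (2.01, adjusted p = 0.0018). Cnot9, with 2 and 9 UMIs in the sham libraries, and Cnot8, with 14 and 2, were called higher but passed the filter on low counts in the tenotomy group alone. Of 10 tested decapping factors and exonucleases, 1 was lower and 3 higher, and per tube 0 were lower and 7 higher. The lower one with TMM was Ddx6, a helicase of P-bodies, which went from 559 to 288 CPM. Dcp2, the decapping enzyme, with Lsm1 and Exosc3, was called higher, but these 3 passed the filter in the tenotomy group alone, and with abundance offsets 0 of the list's 10 tested genes were higher and 2 lower.

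Other proteins that bind AU-rich or related 3′ UTR elements gave counts near those over all genes, Elavl1 included. Of 11 tested, 3 were lower and 2 higher, with a median of -0.07, and per tube 0 were lower and 8 higher. Zc3h12a, the gene of the endonuclease Regnase-1, which is another NF-kB feedback gene, had 22 and 17 UMIs in the sham libraries against 9 and 15 (log2 fold change -1.65, adjusted p = 0.0020 in edgeR). The roquin genes Rc3h1 and Rc3h2 fell by 0.47 and 0.55 on the log2 scale with TMM, and neither passed on the other scales. Cirbp, a cold-inducible RNA-binding protein, was higher at 1.34 (adjusted p = 0.0145) and Khsrp, a decay-promoting protein, at 0.55 (adjusted p = 0.0631). Zc3h12a passed the filter on low counts in the sham group alone, and Cirbp in the tenotomy group alone.

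The kinase axis that controls tristetraprolin was described on 3 scales. Of 7 tested genes, 5 were lower and 0 higher with TMM (median -0.86), 3 were lower and 1 higher with abundance offsets (median -0.35), and 0 were lower and 2 higher per tube (median 0.11, beside 1.01 over all genes). Dusp1, the phosphatase that switches p38 off, had 138 and 126 UMIs in the sham libraries against 84 and 122 (log2 fold change -1.32, adjusted p = 1.08e-05 in edgeR). Map2k3, a kinase that activates p38, fell by 1.27 and Ywhaz, a 14-3-3 protein, by 1.04. The p38α gene itself, Mapk14, had 18 and 12 UMIs against 26 and 30 and a log2 fold change of -0.06, which did not pass (adjusted p = 0.904).

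Of 13 tested genes in a list of reported AU-rich targets, 9 were lower and 2 higher with TMM, with a median of -1.06. Whether the Zfp36 family acts on these genes here was not tested. With abundance offsets 7 were lower and 4 higher (median -0.60), and per tube 5 were lower and 3 higher (median -0.09). The chemokine gene Cxcl1 had 474 and 369 UMIs in the sham libraries against 241 and 223 and fell from 1867 to 539 CPM (log2 fold change -1.80, adjusted p = 1.10e-06 in edgeR). Vegfa fell by 1.66 on the log2 scale and Fos by 1.63. Cdkn1a, the p21 gene, had 389 and 369 UMIs against 397 and 509, higher counts beside a normalized level that fell by 0.71 on the log2 scale with TMM (adjusted p = 0.0014), and with abundance offsets the call turned to higher (0.44, adjusted p = 0.0068). Myod1, the target for which tristetraprolin is known in MuSCs, had 83 and 87 UMIs against 176 and 229, and its log2 fold change of 0.29 did not pass with TMM (adjusted p = 0.171 in edgeR). It was called higher on the other scales, at 0.57 with library sizes alone (adjusted p = 0.0067), 0.96 with abundance offsets (adjusted p = 8.80e-05) and 1.25 per tube (adjusted p = 9.17e-05). Myog, a gene of differentiating myocytes, had 52 and 49 UMIs against 246 and 282 and rose by 1.43 (adjusted p = 9.96e-06), and Ccnd1 rose by 0.67 (adjusted p = 0.0136). Il6, with 17 and 14 UMIs against 19 and 25, did not pass (-0.46, adjusted p = 0.302 in edgeR). Tnf, with 0, 0, 1 and 5 UMIs, was too low to be tested.

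The heptamer was present in 14 of the 20 reported AU-rich targets and was not found in Ccl2, Myc, Myog, Cdkn1a, Ccnd3 or Plaur. Windows are shown for Cxcl1, which had the lowest fold change of the list with TMM, and for Myod1, the target tied to MuSC quiescence.
Cxcl1, chr5:90892606-90892635, plus strand: gtccTATTTATTTATgTATTTATTTATtcc
Myod1, chr7:46378967-46378996, plus strand: ccccttgggctaTATTTATctcccaggcat

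Over all genes tested with an annotated 3′ UTR, the heptamer was present in 38.9% of the 1662 genes called lower, 34.6% of the 3341 genes not called and 28.4% of the 1843 genes called higher. The median 3′ UTR length followed the same order, at 1630, 1443 and 1002 bases. The part of 3′ UTR length in the shares was not tested.

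Of 18 tested genes reported as NF-kB targets, 13 were lower and 1 higher, with a median of -0.98, and several of these genes also stand in other lists. Cxcl2, a neutrophil chemokine, had 159 and 140 UMIs in the sham libraries against 55 and 62 and fell 4.96-fold (log2 fold change -2.31, adjusted p = 1.25e-07 in edgeR). Gadd45b, a stress-response gene, had 101 and 112 UMIs against 53 and 62 and fell by 1.85 on the log2 scale. The exception was Bcl2l1, the Bcl-xL gene, with 5 and 3 UMIs against 40 and 55, which rose 5.98-fold (adjusted p = 1.27e-04 in edgeR) and passed the filter on low counts in the tenotomy group alone. With abundance offsets 10 of the 18 were lower and 1 higher, and per tube 6 were lower and 5 higher.

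Immediate early and stress genes that tissue digestion is known to induce were lower as well, and several of them, such as Fos and Dusp1, also stand in the lists above. Of 27 in that list, all of them tested, 26 were lower and 0 higher, with a median log2 fold change of -1.49, beside -1.53 for the 9 genes. Their summed level was 28119 and 28689 CPM in the sham libraries against 10941 and 10314 CPM. The most abundant, the heat shock gene Hspa1b, had 610 and 588 UMIs against 495 and 581, and Fosb, Jund and Atf3 fell by 2.18, 1.99 and 1.98. With abundance offsets 22 were lower and 2 higher, and per tube 17 were lower and 3 higher. All 4 tubes went through digestion and sorting, and the part of these steps in the levels of Zfp36, Nfkbia and the other genes was not tested.

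The genes most like Zfp36 and Nfkbia in profile were found by distance. Among 4714 genes with a mean of at least 20 UMIs, the 5 with the smallest Euclidean distance from Zfp36, over the 4 libraries on a log2(CPM + 1) scale centred on each gene's mean, were Myc (0.042), Ier5 (0.062), Gas1 (0.082), Ier3 (0.085) and Baz1a (0.087). The 5 nearest to Nfkbia were Trp53bp2 (0.037), Fgfr1 (0.062), Btg2 (0.063), Fos (0.065) and Tcim (0.080). With 4 libraries in 2 groups, such a distance mainly reflects the size of the difference between the groups and is a description only.

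Summed levels of leukocyte, myofiber, mural and endothelial markers were above both sham libraries in both tenotomy libraries. Those of fibro-adipogenic and MuSC markers were below both. The part of other cells in the levels of the 9 genes was not tested. Of 16 leukocyte markers 15 had a row, summing to 3 and 7 UMIs in the sham libraries and 83 and 217 in the tenotomy libraries (13.1 and 31.7 CPM against 216 and 439.4 CPM). The most abundant, Lyz2, had 0, 0, 17 and 38 UMIs, and the defining marker Ptprc had 0, 1, 1 and 4. Only Lyz2 and Cd74 could be tested, and both passed the filter in the tenotomy group alone. Myofiber markers, 7 of 8 with a row, summed to 383 and 204 UMIs against 1096 and 1240 (1667 and 924 CPM against 2850 and 2511 CPM), led by Acta1, with 6 of 6 tested higher, of which 5 passed the filter on low counts in both groups. Mural markers, all 8 with a row, summed to 197 and 167 UMIs against 488 and 713 (858 and 757 CPM against 1269 and 1444 CPM), led by Acta2, with Rgs5 at 13, 4, 38 and 86. Of 5 tested, 2 were higher, of which Rgs5 passed the filter in the tenotomy group alone, and 1 was lower, Tagln at -0.61 (adjusted p = 0.0453 in edgeR). Endothelial markers, all 8 with a row, summed to 118 and 90.6 CPM against 125 and 124 CPM, led by Tek, with Pecam1 at 4, 2, 11 and 7 UMIs. Of 2 tested, 1 was lower, Tek with 10, 12, 5 and 11 UMIs (-1.41, adjusted p = 0.0154 in edgeR), which passed the filter in the sham group alone. Fibro-adipogenic markers, all 9 with a row, summed to 5415 and 5146 CPM against 3731 and 3384 CPM, led by Col3a1, with Pdgfra at 0, 0, 2 and 0 UMIs and Ly6a at 1, 0, 22 and 41. Of 6 tested, 4 were lower and 1, Ly6a, was higher with TMM, whereas 1 was lower and 3 higher with abundance offsets. Ly6a passed the filter in the tenotomy group alone. MuSC markers, 10 of 10 tested, summed to 7234 and 6401 CPM against 5325 and 4694 CPM, led by Sdc4. With TMM 5 were lower and 2 higher, but 2 were lower and 5 higher both with abundance offsets and per tube. Those lower with TMM were Calcr (-2.60), Chodl (-1.76), Sdc4 (-0.91), Vcam1 (-0.90) and Pax7 (-0.84), and those higher were Itga7 (0.67) and Cdh15 (0.47).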

How the data were processed

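The deposited file held 1 count of UMIs per gene and library for the 4 libraries, without normalization. The authors extracted UMIs with UMI-tools 1.0.0, aligned reads to GRCm38 with HISAT2 2.1.0, assigned them with featureCounts 1.6.4 and collapsed UMIs by the directional method. The submitters' processing notes also name DESeq2 1.22.2. The annotation release is not given in the sources used here. All 19353 identifiers matched GENCODE M21, 19331 with the same name.

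Genes were kept by filterByExpr (minimum count 10, minimum total 15), which 4745 genes passed in both groups, scaled by TMM and fitted with glmQLFit in edgeR 4.0.16 (limma 3.58.1, R 4.3.3), with 1 spread for both groups. The common biological coefficient of variation was 9.50%. Benjamini-Hochberg adjusted p-values over all 7228 genes were called at 0.1, the threshold of the study. DESeq2 1.42.0 was an alternative. Intervals of 95% for shares cover counting error only. Motifs and figures used Python 3.11.15 with numpy 2.4.6, pandas 2.3.3 and matplotlib 3.10.9. 3′ UTRs were read from annotated transcripts, and the window of 1 gene is not reported here.

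The 9 genes and the gene lists were chosen with earlier results of these data known. From each list the text names up to 3 genes called in each direction with the largest change and a mean of at least 10 UMIs, the leading marker genes, and Tnf, Il6, Myod1, Ccnd1 and Cdkn1a. Other genes named were chosen after their values were seen. No library was left out.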

Additional observations from a re-analysis of the deposited data

How the results depend on the processing

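Over all genes, 1868 were higher and 1898 lower with TMM and 967 and 1215 with DESeq2. DESeq2 tested 10348 genes against 7228 in edgeR, so that the tool and the set of genes changed together. UMIs per tube gave 4481 and 331, so that 93.1% of calls were higher against 49.6% with TMM, and library sizes alone gave 66.6%. The median of all genes then moved from 0.05 to 1.01 and 0.33. Of the 9 genes, 7 were lower under all but 4 of the 15 alternatives. Those 4 gave 6, since Zfp36l1 did not pass with abundance offsets and Tnfaip3 did not pass per tube, in DESeq2 or without tenotomy replicate 1. Elavl1 was the only one of the 9 called higher, which was 1 gene, per tube. Zfp36, Nfkbia, Nfkbiz, Nfkb1 and Rela were lower under all 15, with log2 fold changes from -1.61 to -0.57, -1.69 to -0.60, -2.28 to -1.13, -1.91 to -0.79 and -2.32 to -1.24.

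Signs turned for the 2 genes not called. Zfp36l2 was at 0.61 per tube. Elavl1 was at 0.95 per tube, 0.26 with library sizes alone, 0.28 with abundance offsets, 0.057 with no filter and 0.037 with counts thinned to the smallest library. The cause was not tested. Leaving out 1 library gave -0.70 to 0.089 for Zfp36l2 and -0.29 to 0.22 for Elavl1, and -1.74 to -0.66 for Tnfaip3, where the lone sample is assumed to vary like the other group. The replicate block gave 1806 higher and 1864 lower genes and changed no call among the 9. Deviations of replicate 1 correlated at -0.04 between the groups, which gave no sign of pairing by number. With so few libraries this does not decide whether the groups share mice. The low counts of Tnfaip3 and Zfp36l2 limit what could be told apart there.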
